A study of Mus musculus with 2 samples.

Results

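CpG-rich promoters on which no DNase I hypersensitive peak was called were described in heart tissue of newborn mice. A protein-coding gene of GENCODE vM21 on chromosomes 1 to 19 was called CpG-rich when the CpG ratio, observed over expected, reached 0.6 in the 1001 bp centred on a transcription start site (TSS), taking the highest value over its TSSs. It was a member when no peak centre of either library lay within 500 bp of any of its TSSs. Of 20807 protein-coding genes, 11218 were CpG-rich, and 478 of these had no such peak. The tissue came from strain B6NCrl at postnatal day 0, and 1 group of 2 libraries, biological replicates 1 and 2, was analysed, with no treatment or second genotype. The labels name the same donor for both libraries but a biosample for each, and sex was not recorded. An SD given here therefore measures how far these samples lie apart, which may be technical variation. Whole tissue was used, so a site open in few cells and a site weakly open in many cells cannot be told apart.

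CpG islands are stretches of DNA that kept their CpG dinucleotides because they are free of cytosine methylation in the germ line. Most housekeeping genes start in one, and such promoters are usually accessible in every tissue, whether or not the gene is strongly transcribed. Some CpG islands are known exceptions, from studies of other cells: those of developmental regulators, which Polycomb complexes can hold compacted, and those of germline genes, many of which are methylated in somatic tissues. Neither Polycomb marks nor methylation were measured here.

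The sequences below show what kinds of promoter carried no peak. All are read 5′ to 3′ on the strand of the gene from GRCm38, whose primary sequence is that of mm10, and lie outside annotated exons. The first set, with each CpG in capitals, gives the 150 bp before the 5′-most TSS of 3 heart genes, because these are members with known roles in the heart: Irx4 at chr13:73260329-73260478, Hcn4 at chr9:58823262-58823411 and Hcn2 at chr10:79716484-79716633, all on the plus strand. They hold 18, 17 and 13 CpG.
Irx4: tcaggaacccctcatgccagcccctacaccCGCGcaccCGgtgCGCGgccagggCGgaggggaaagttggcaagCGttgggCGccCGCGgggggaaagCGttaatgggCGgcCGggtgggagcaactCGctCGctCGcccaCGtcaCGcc
Hcn4: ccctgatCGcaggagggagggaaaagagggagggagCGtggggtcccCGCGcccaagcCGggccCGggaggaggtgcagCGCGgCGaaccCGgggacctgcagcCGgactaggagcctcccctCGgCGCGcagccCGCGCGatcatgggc
Hcn2: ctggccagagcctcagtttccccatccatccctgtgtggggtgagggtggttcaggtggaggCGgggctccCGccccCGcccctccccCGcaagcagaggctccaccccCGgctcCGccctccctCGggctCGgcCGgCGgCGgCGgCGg

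The second set gives 30 bases around the E-box nearest the TSS of 4 germline members, with the E-box in capitals, because this motif stood at 12 of the 20 germline members with unique promoters. Fkbp6 is shown from chr5:135350064-135350093 (minus strand), Slc25a31 from chr3:40708766-40708795 (plus), Stk31 from chr6:49395472-49395501 (plus) and Sycp1 from chr3:102936177-102936206 (minus).
Fkbp6: gcgtctatcgatCACGTGccgtttctctcg
Slc25a31: cgcaactggaaaCACGTGttatggtcacat
Stk31: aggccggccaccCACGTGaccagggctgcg
Sycp1: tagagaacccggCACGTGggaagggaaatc

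The last set gives the 100 bp before a TSS of Srp54b (chr12:55155004-55155103) and of Srp54c (chr12:55230068-55230167), both on the plus strand, because it shows a promoter that occurs more than once in the genome. Of the 100 bases, 100 were identical, so a read from within it cannot be assigned to either gene.
Srp54b: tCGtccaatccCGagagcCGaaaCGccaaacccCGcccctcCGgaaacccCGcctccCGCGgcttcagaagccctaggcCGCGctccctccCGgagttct
Srp54c: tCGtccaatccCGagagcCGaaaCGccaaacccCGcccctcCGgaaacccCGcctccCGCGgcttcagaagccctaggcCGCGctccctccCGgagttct

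Replicate 1 had 164657 peaks and 152488 hotspots, the broader regions in which cleavage is raised, and replicate 2 had 144708 peaks and 132624 hotspots. Each peak carries a whole-number signal value from the authors, with no unit stated, whose median was 36 in replicate 1 and 35 in replicate 2. The labelled tissue was checked on marker genes. All 10 heart muscle markers, Myh6, Tnnt2 and Actc1 among them, carried promoter peaks in both replicates. So did 4 of 4 endothelial and 3 of 3 fibroblast markers, while 3 of 3 hepatocyte markers had none. The 2 erythroid markers, the globin genes Hbb-bs and Hba-a1, had none either. In a list of erythroid genes, however, 3 of 3 CpG-rich genes had promoter peaks in both replicates, as did 10458 of all 11218 CpG-rich genes. Markers of other cells were mixed: 2 of 3 smooth muscle markers had a peak in both replicates, Tagln being without one in replicate 2, and so did 1 of 3 leukocyte markers (Cd68). The neuronal marker Rbfox3 (values 36 and 28) and the skeletal muscle marker Myog (38 and 36) also had promoter peaks in both replicates, while Neurod1 and Elavl3 had one in a single replicate each and Myod1 had none.

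Promoter peaks were nearly universal among CpG-rich genes. In both libraries 10458 genes had one, 180 had one in replicate 1 alone and 102 in replicate 2 alone. The share of CpG-rich genes without a promoter peak was 5.17% in replicate 1 and 5.87% in replicate 2 (mean 5.52% ± 0.492, SD, n = 2), and 4.26% had none in either library. Of the 9589 genes under the CpG threshold, 62.6% had none in either library, and of all protein-coding genes 31.1%. The 282 genes with a peak in 1 library are neighbours of the members in signal: their promoter peaks had a median value of 27 (lowest 6, highest 122), against medians of 95 and 91 in replicates 1 and 2 at genes with a peak in both. None of these genes is a member. Khsrp, which encodes an RNA-binding protein of mRNA decay, held the highest of these values, 122 in replicate 2, while in replicate 1 the nearest peak centre lay 549 bp from a TSS, just outside the window.

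The members lay lower in the CpG-rich range but differed little in base composition. Their median CpG ratio was 0.732, against 0.804 at genes with a peak in both libraries, their median GC content 61.6% against 61.7%, and the island around the TSS had a median length of 1056 bp against 1086 bp. The share without a peak fell from 7.64% of genes with a CpG ratio between 0.6 and 0.7 to 1.55% of those above 1.0. The number of annotated TSSs moved with it as well. Members had a median of 2 TSSs and genes with a peak in both libraries 5, and 14.7% of genes with 1 TSS were without a peak, against 0.357% of genes with 11 or more. A gene with more TSSs offers more windows in which a peak can lie, so this relation is partly built into the rule. The CpG ratio is the highest over the same TSSs, so its relation to the share may be partly built in too. A TSS of another protein-coding gene within 500 bp, as at head-to-head pairs, was found at 7.74% of members and 21.9% of genes with a peak in both libraries. Strong CpG islands were nevertheless found among the members. Barhl2, which encodes a homeodomain factor of the developing brain, had the highest CpG ratio of all, 1.07, and its nearest peak lay 3925 bp away in both libraries. Tlx3, a homeobox gene of sensory neurons, had the longest island, 4502 bp, and its nearest peak lay 2158 bp away in replicate 1 and 14262 bp away in replicate 2. Islands of 2970 to 3574 bp were also found at Pou3f1, Zic2, Cdx2, Insm1, Lhx4 and Sall3, all of which encode transcription factors.

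**Figure D1:**
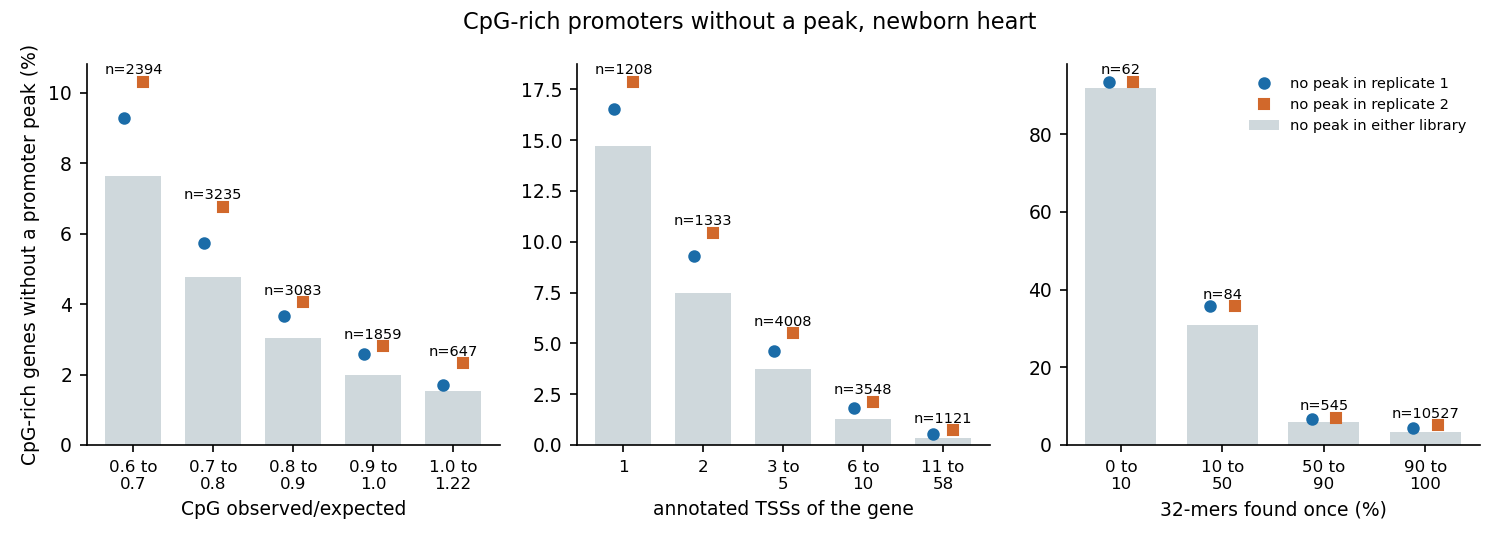
Share of CpG-rich genes without a promoter peak (y axis, percent) by CpG ratio, by number of annotated TSSs and by the share of 32-mers of the promoter found once in the genome; bars are genes without a peak in either library, circles replicate 1 and squares replicate 2, and n is the number of genes. The share falls from 7.64% to 1.55% along the CpG ratio and reaches 91.9% where under 10% of the 32-mers are unique.

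Some members have promoters whose sequence occurs more than once in the genome. Read length is not stated in these sources, and uniqueness was counted over stretches of 32 bases (32-mers). In 115 of the 478 members (24.1%) under 90% of the 32-mers of the promoter window occurred once in the genome, against 5.32% of genes with a peak in both libraries. Where under 10% of 32-mers were unique, 57 of 62 CpG-rich genes (91.9%) had no peak. The 115 members include Srp54b and Srp54c, which encode a subunit of the signal recognition particle, Slc25a37, a mitochondrial iron transporter of red cell precursors, and Loxl2, an enzyme that cross-links collagen. They also include 6 neighbouring histone genes on chromosome 13 (Hist1h2bq, Hist1h2ao, Hist1h4m, Hist1h4n, Hist1h2ap and Hist1h2br) and 50 of the 62 members with a predicted-gene (Gm) name. Most CpG-rich histone cluster genes had a peak, however: 54 of 64 had one in both libraries, though only 7 of the 64 have a unique promoter. The nearest peak of the 115 lay at a median of 17780 bp, against 2203 bp for the 363 members with unique promoters. Among unique promoters 3.45% had no peak in either library (363 of 10527). How far read placement accounts for the missing peaks was not tested.

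Developmental transcription factors made up the largest named group of members. Of 214 CpG-rich genes in 7 lists of such factors, 86 had no promoter peak (40.2%, against 4.26% of all CpG-rich genes), and the share was 44.4% in replicate 1 and 51.4% in replicate 2. Homeobox genes outside the Hox clusters contributed 41 of 98, forkhead factors 11 of 33, PAX factors 4 of 7, lineage factors of the basic helix-loop-helix (bHLH) family 7 of 21, SOX factors 2 of 16 and T-box factors 2 of 10. The SOX share was 12.5% in replicate 1 and 31.2% in replicate 2, and the T-box share 20% and 50%, so both small lists depend on which library is read. Factor genes with unique promoters and a peak in both libraries, 94 in number, had a median promoter value of 61.5 in replicate 1 and 54.5 in replicate 2, against 95 and 91 over all CpG-rich genes with a peak in both. Hox genes, which specify position along the body axis, contributed 19 of 29 and the highest share of the 7 lists, 65.5%. Their nearest peaks lay between 512 bp (Hoxd3, replicate 2) and 13049 bp (Hoxd1, replicate 2) from a TSS.

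Examples are given by the role each factor is known for. Pou3f2, a factor of neural progenitors, was among the most isolated, with its nearest peak at 68935 bp in both libraries and values of 12 and 7. Neurog2, which drives neuronal differentiation, had a peak of value 45 at 1156 bp in replicate 1 and one of value 49 at 7704 bp in replicate 2. Cdx2, which specifies gut epithelium, had its nearest peaks at 7939 and 7959 bp with values of 33 and 27. Ptf1a, a factor of the pancreas, had them at 2608 and 2568 bp with values of 40 and 34. Pax3 and Pax7, factors of skeletal muscle progenitors, had theirs at 18817 and 18757 bp for Pax3 and at 10183 and 11196 bp for Pax7. Pax3 and Pax7 were thus farther from a peak than Cdx2 and Ptf1a in both libraries. T, the brachyury gene of early mesoderm, lay 4112 and 4092 bp from its nearest peaks. In these examples the distance differed by under 100 bp between libraries, except at Neurog2 and Pax7, where it was longer in replicate 2.

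Several factors had a peak close to the window or within the island itself. Pax5, the factor of the B cell lineage, had a peak of value 71 at 545 bp upstream in both libraries, and hotspots of 441 and 439 bp reached into its promoter window. Foxo6, a forkhead factor best known from brain, had peaks of value 87 and 105 at 622 and 682 bp upstream. Pou3f1, a factor of Schwann cells and epidermis, had peaks of value 79 and 77 at 744 and 704 bp downstream, inside its island of 3574 bp. A peak lay inside the promoter's island in at least 1 library at 51 of all 478 members, and at 10 of the 84 developmental factors with unique promoters.

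**Figure D2:**
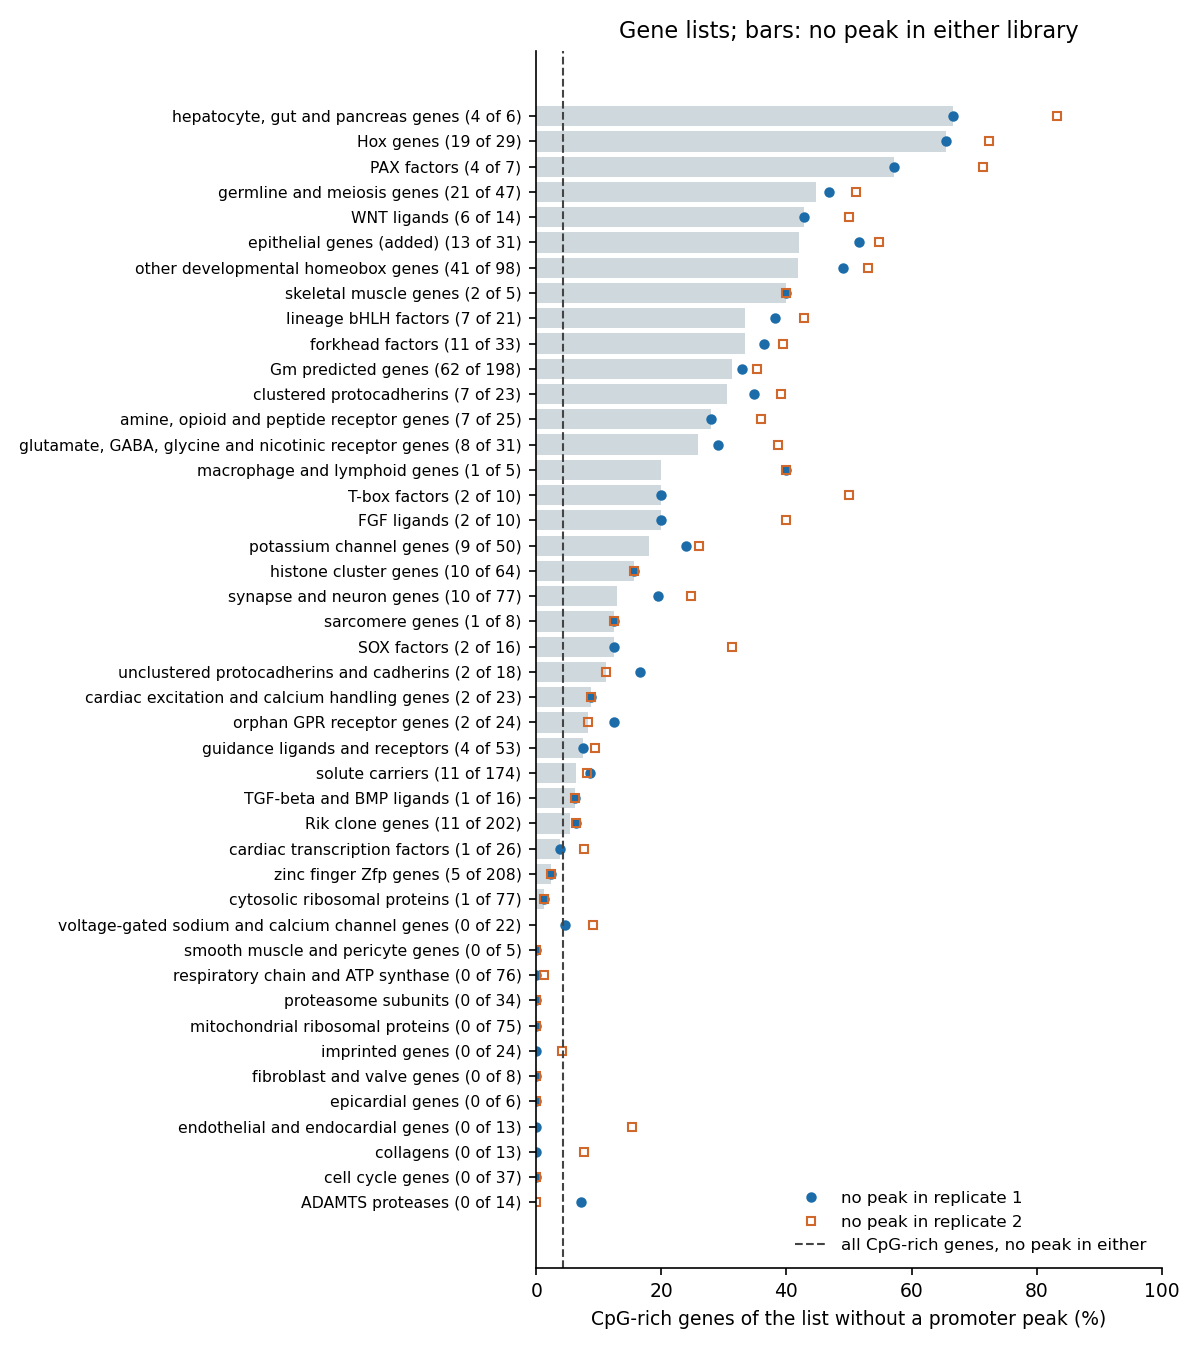
Share of the CpG-rich genes of each list without a promoter peak (x axis, percent), for lists with at least 5 CpG-rich genes; bars are genes without a peak in either library, circles replicate 1, open squares replicate 2, and the dashed line marks the 4.26% of all CpG-rich genes. Hox genes (19 of 29), germline genes (21 of 47) and other homeobox genes (41 of 98) lie far to the right. In contrast, 0 of 75 mitochondrial ribosomal protein genes lacked a peak. So did 0 of 37 cell cycle genes, but a list of 37 genes can hold none without differing from 4.26%.

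Germline and meiosis genes, which act in sperm and egg precursors, formed another group. Of 47 CpG-rich genes in this list, 21 had none (44.7%, against 4.26% of all CpG-rich genes), with 46.8% in replicate 1 and 51.1% in replicate 2. They had lower CpG ratios and shorter islands than the developmental factors: the 20 with unique promoters had a median CpG ratio of 0.679 and a median island of 729 bp, against 0.767 and 1539 bp for the 84 factors. No hotspot reached the promoter window of any of the 20 in either library, and no member of the list had a peak within 800 bp. Ddx4, the germ cell RNA helicase vasa, had its nearest peaks at 8236 and 8216 bp with values of 116 and 114, which are the highest nearest-peak values of the group in both libraries after 123 at Hormad1 in replicate 1. A nearest peak was taken whether or not it lay at a TSS of another gene. Sycp1, a component of the synaptonemal complex that joins homologous chromosomes, had weak peaks of value 10 and 16 at 8872 and 8668 bp. Slc25a31, the ADP/ATP carrier of testis, had peaks of value 43 and 34 at 14164 and 14204 bp. Stk31, a kinase gene of testis, had them at 2016 and 1996 bp, and Fkbp6, which acts in meiosis and transposon silencing, at 3224 and 3727 bp. Meioc, a meiosis gene, differed between libraries: its nearest peak had a value of 12 at 817 bp in replicate 1 and of 49 at 6985 bp in replicate 2.

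The E-box CACGTG, a palindrome bound by bHLH zipper factors such as USF, MYC and MGA with MAX, was found between 250 bp before and 50 bp after the TSS at 12 of the 20 germline members (60%). It was found at 5 of 22 germline genes with a peak in both libraries (22.7%), at 11.6% of all 363 members with unique promoters and at 10.6% of all CpG-rich genes. Within 500 bp of the TSS the gap was smaller, with the E-box at 14 of the 20 germline members (70%) and at 12 of the 22 germline genes with a peak (54.5%). The core GCATGCGC of the NRF1 motif stood at 6 of the 20 germline members (30%), against 2 of the 22 germline genes with a peak (9.09%) and 5.54% of all CpG-rich genes. The E2F6 motif TTCCCGCC stood at 5 of 20 (25%), close to its share at the germline genes with a peak, 4 of 22 (18.2%), and against 4.88% of all CpG-rich genes. A match describes these letters and is not evidence of a bound factor. The lists hold few genes, so each germline promoter moves these shares by 5 percentage points, and no test was made.

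Genes of neuronal signalling formed the next group. Of 205 CpG-rich genes in 5 lists of ion channels, receptors and synaptic proteins, 34 had none (16.6%, against 4.26%), with 21.5% in replicate 1 and 26.8% in replicate 2. Receptors for amines, opioids and peptides contributed 7 of 25, receptors for glutamate, GABA, glycine and acetylcholine 8 of 31, potassium channels 9 of 50 and synaptic genes 10 of 77. Read in 1 library alone, 15 of the 77 synaptic genes were without a peak in replicate 1 and 19 in replicate 2. None of 22 genes for voltage-gated sodium and calcium channels was without a peak in both libraries, though 4.55% and 9.09% were without one in replicates 1 and 2. Slc18a3, which loads acetylcholine into synaptic vesicles, had peaks of value 44 and 39 at 2941 bp. Slc32a1, the vesicular transporter of GABA and glycine, had strong peaks of value 95 and 93, but 14104 bp away. Drd5, a dopamine receptor gene, had peaks of value 63 and 25 at 11436 and 10256 bp. Gabbr2, a subunit of the GABA-B receptor, was surrounded by open sites: its nearest peaks had values of 84 and 76 at 811 and 791 bp, and 32 and 34 distal peaks lay within 50 kb. Neuronal members thus ranged from isolated genes to genes amid many open sites. Slc6a4, the serotonin transporter, had a peak of value 31 at 557 bp in replicate 1, where a hotspot of 149 bp reached the window, and one of value 51 at 1092 bp in replicate 2.

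Among secreted ligands and guidance molecules 13 of 93 CpG-rich genes had no promoter peak (14.0%, against 4.26%), and the WNT ligands alone contributed 6 of 14. These were Wnt3, Wnt3a, Wnt6, Wnt7a, Wnt7b and Wnt9b, which signal through Frizzled receptors in many embryonic tissues. For 5 of the 6 the nearest peak lay within 2000 bp in at least 1 library, the exception being Wnt3a. Wnt7a had peaks of value 32 and 40 at 568 and 528 bp and hotspots of 475 and 324 bp over the window. Wnt7b had peaks of value 60 and 61 at 738 and 758 bp, Wnt6 of value 89 and 87 at 1379 and 1359 bp, and Wnt3a of value 41 and 37 at 3059 bp. Wnt3 and Wnt9b differed between the libraries, with peaks at 559 and 810 bp in replicate 1 and at 6201 and 9090 bp in replicate 2. The members also included 2 of 10 FGF ligands, Fgf4 and Fgf15, 1 of 16 TGF-beta and BMP ligands (Gdf7) and 4 of 53 guidance genes. The FGF share was 20% in replicate 1 and 40% in replicate 2. Fgf15, a hormone-like ligand of the embryo and gut, had peaks of value 57 and 59 at 520 bp in both libraries.

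Genes of epithelia were also found among the members. In a list of epithelial genes written after the members had been seen, 13 of 31 CpG-rich genes had no promoter peak, against 4.26% of all CpG-rich genes, so the count is a description of that choice. Epcam, an adhesion molecule of epithelia, had its nearest peaks at 6968 and 2749 bp with values of 12 and 18. Gjb2, the gap junction protein connexin 26, had them at 11451 and 4649 bp with values of 46 and 31. Ovol1 and Ovol2, zinc finger factors of epidermis, lay 6725 and 7025 bp and 30435 and 30875 bp from a peak. Lad1, a basement membrane protein, had 66 distal peaks within 50 kb in replicate 1 and 16 in replicate 2, the largest gap between libraries among all members. Of 6 CpG-rich genes of liver, gut and pancreas, 4 were members, against 4.26% of all CpG-rich genes, among them Cdx2, Foxa2 and Ptf1a, which encode transcription factors.

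Genes used by all cells were nearly absent. None of 75 mitochondrial ribosomal protein genes, 34 proteasome subunit genes, 37 cell cycle genes and 76 genes of the respiratory chain and ATP synthase was a member, against 4.26% of all CpG-rich genes. The single member among 77 cytosolic ribosomal protein genes was Rpl10l, the testis copy of Rpl10, whose promoter was unique at 74.4% of 32-mers. Of large families, 5 of 208 zinc finger genes named Zfp (2.40%) and 11 of 174 solute carriers (6.32%) were members. So were 11 of 202 genes with a Rik clone name (5.45%). These 3 shares lie near the 4.26% of all CpG-rich genes. Clustered protocadherins contributed 7 of 23 (30.4%), but 8 of the 23 have a unique promoter and 1 of those 8 is a member. None of 24 imprinted genes and none of 13 collagen genes was a member, and in replicate 2 alone 4.17% and 7.69% of them were without a peak, against 5.87% of all CpG-rich genes. None of 13 endothelial, 8 fibroblast, 5 smooth muscle and 6 epicardial genes was a member either, and 2 of 13 endothelial genes (15.4%) were without a peak in replicate 2. Since 4.26% of all CpG-rich genes were members, lists of 5 to 37 genes can hold none without differing from that share. This includes the lists of proteasome subunit and cell cycle genes.

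Among heart genes, 1 of 26 cardiac transcription factors and 2 of 23 genes of excitation and calcium handling were members, against 4.26% of all CpG-rich genes. Hcn4 (chromosome 9, 58823412 to 58863175, plus strand), the pacemaker channel of the sinoatrial node, had a CpG ratio of 0.868. Its nearest peaks lay upstream, with a value of 43 at 521 bp in replicate 1 and of 36 at 781 bp in replicate 2, so the first of them missed the window by 21 bp. Replicate 1 also had a peak of value 36 at 761 bp, close to that of replicate 2. A hotspot of 496 bp reached the Hcn4 window in replicate 1 and none did in replicate 2. Further peaks stood 5481 and 5461 bp upstream of Hcn4, with values of 46 and 41, and 17281 bp upstream in both libraries, with 58 and 49. The 3 sites near Hcn4 seen in both libraries were thus all upstream of the gene, with values at or above the median of all peaks of the library.

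Hcn2 (chromosome 10, 79716634 to 79736108, plus strand), a related channel of heart and brain, had a CpG ratio of 0.869 and its nearest peaks 1557 and 1537 bp downstream, with values of 52 and 43. It had 13 and 11 peaks within 20 kb of the TSS, the highest of them 12243 bp upstream with values of 119 and 102. Counts within 20 kb take all peaks, including any at a TSS of another gene, so a site need not belong to the gene named. Irx4 (chromosome 13, 73260479 to 73269608, plus strand), the homeobox factor of ventricular muscle, had a CpG ratio of 0.817. Its nearest peaks lay 3314 and 3354 bp downstream of a TSS with values of 58 and 62, and its highest 17092 and 17052 bp downstream of the 5′-most TSS with 72 and 86. Irx4 thus had open sites of more than median strength on the gene's side and none within 20 kb upstream in either library.

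Nr2f2 (chromosome 7, 70351944 to 70366735, minus strand), the atrial and venous factor COUP-TFII, was in no list and is named after its values were seen. Its nearest peaks had values of 62 and 89 at 818 and 1198 bp from a TSS. Its CpG ratio of 0.766 belongs to the richest of its 6 TSSs. Of these 4 heart genes, all but Irx4 had their nearest peak within 2000 bp in both libraries, and each of the 4 had at least 2 peaks within 20 kb in each library.

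**Figure D3:**
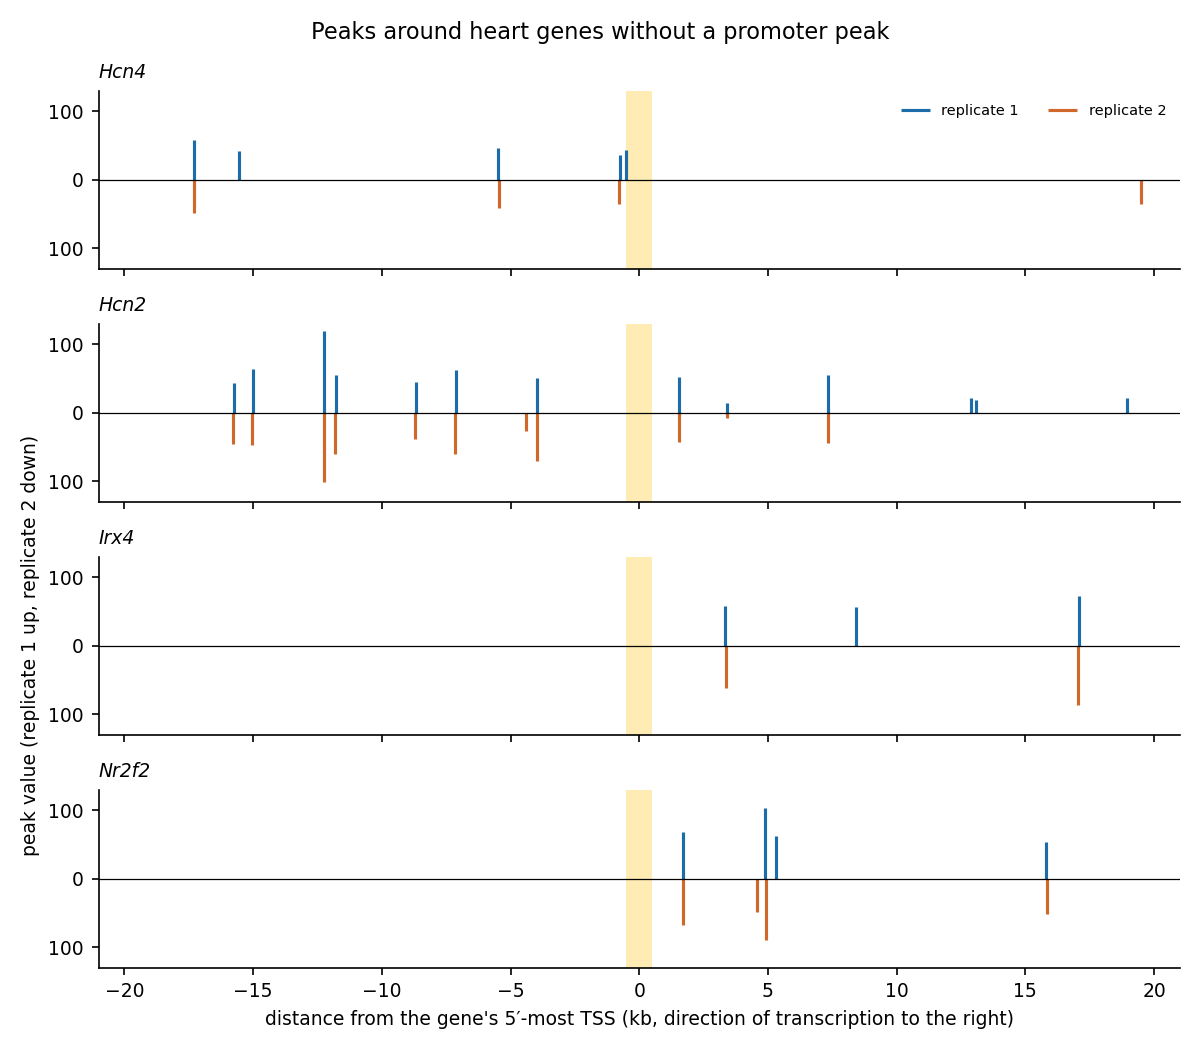
Peaks within 20 kb of the 5′-most TSS of 4 heart genes without a promoter peak; the x axis is the distance in the direction of transcription (kb), and lines are peak values, replicate 1 upward and replicate 2 downward. The shaded 500 bp to either side of the TSS hold no peak, while peaks of value 43 and 36 stand 521 and 781 bp upstream of Hcn4 and peaks of 119 and 102 stand 12243 bp upstream of Hcn2. All peaks are drawn, including any at a TSS of another gene.

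The distance from a TSS to the nearest peak centre of either library had a median of 3364.5 bp over the 478 members. It was at most 1000 bp at 94 members, at most 2000 bp at 181 and more than 50 kb at 40, of which 6 had unique promoters. The nearest peak lay upstream at 244 members and downstream at 234. Among members with unique promoters, Galnt13, a glycosyltransferase gene of neurons, lay farthest from any peak, at 350726 and 350706 bp. It was followed by Zic4, a zinc finger factor of the cerebellum, at 77841 and 77741 bp, and by Trhde, which encodes an enzyme that degrades thyrotropin-releasing hormone, at 71644 and 124413 bp. Groups differed in this distance, which is a description since the rule used the same peaks: the median was 1173 bp for the 13 ligand and guidance genes, 1849 bp for the 34 neuronal genes, 2703.5 bp for the 84 developmental factors and 2766.5 bp for the 20 germline genes.

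**Figure D4:**
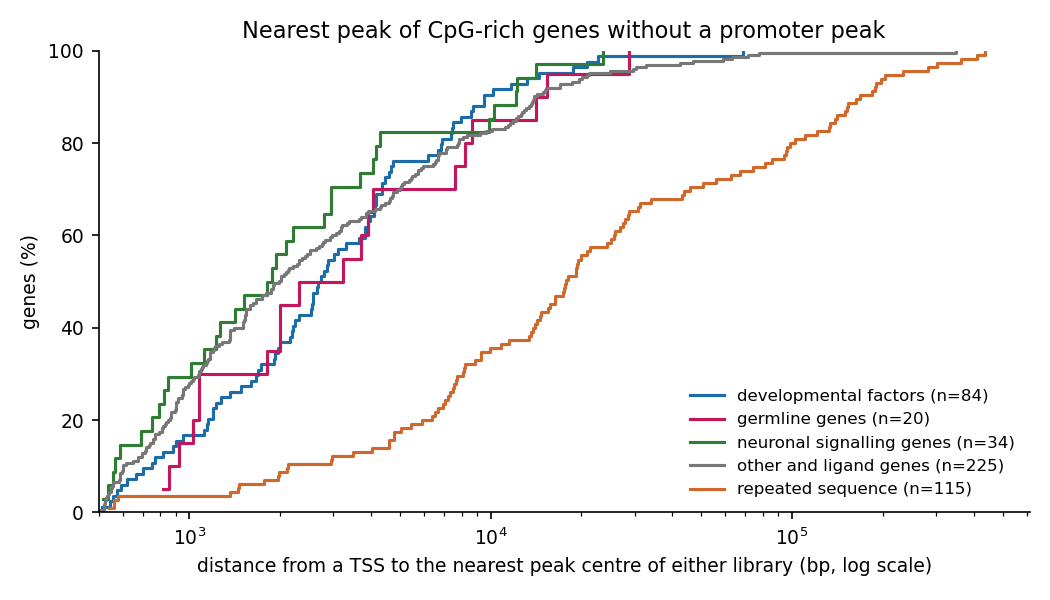
Cumulative share of members (y axis, percent) whose nearest peak centre in either library lies within the distance on the log-scaled x axis (bp), for members grouped by role and for those with repeated promoter sequence. The median is 2703.5 bp for developmental factors, 2766.5 bp for germline genes and 17780 bp for the 115 members with repeated promoters, whose curve lies to the right of the others beyond 1000 bp.

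Hotspots showed that 25 members were not free of raised cleavage. A hotspot overlapped the 1001 bp window of 25 members in at least 1 library and of 19 in both. The widest, of 830 bp in replicate 1 and 1787 bp in replicate 2, reached the promoter of Apoh, which encodes the plasma protein apolipoprotein H. The nearest peaks, of value 78 and 74, lay 503 and 523 bp upstream. A TSS of another protein-coding gene, Prkca, lies within 500 bp of a TSS of Apoh. The hotspot and peaks therefore cannot be assigned to Apoh alone. Grm8, a glutamate receptor gene, had hotspots of 220 and 823 bp but peaks of value 10 in both libraries, at 518 and 558 bp. Bcl6b, a zinc finger repressor gene, had hotspots of 617 and 594 bp and peaks of value 83 and 82 at 586 and 533 bp upstream. The call of no peak at these promoters thus depended on how far from the TSS the peak was centred.

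Just inside the threshold of 500 bp stood Apoh (503 bp), Hoxd3 (512 bp), Grm8 (518 bp), Fgf15 (520 bp) and Hcn4 (521 bp). Just outside it, with a peak in the window, stood Sowaha (483 bp), Nkx2-4 (486 bp), Trim7 (487 bp), Ina (493 bp) and Hspa1a (495 bp). At the CpG threshold the members nearest to 0.6 were Ly6k, Gm3164, Oaz3, Lin28a and Plac9b, with ratios from 0.6012 to 0.6021. Peakless genes just under it included Chst9, Prr36, Gm13290 and Oxct2a, with ratios from 0.5991 down to 0.5980.

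Distal peaks, whose centres lie more than 1 kb from every annotated TSS of any gene, were not used by the rule. Within 50 kb of a TSS, members had a mean of 5.99 distal peaks in replicate 1 and 5.14 in replicate 2 (5.57 ± 0.599, SD, n = 2). Genes with a peak in both libraries had 9.89 and 8.50 (9.20 ± 0.977), so in each library the members had fewer. The count covers 50 kb around every TSS of a gene, and the median number of TSSs was 2 at members against 5. The stretch searched can therefore be longer at genes with a peak, and part of this difference may come from the count itself. Members with unique promoters had 7.02 and 5.91. The difference was also seen within developmental factors with unique promoters. The 84 without a promoter peak had 5.61 and 4.74 distal peaks, and the 94 with one in both libraries had 9.27 and 7.59. Both sets had a median of 2 TSSs, but 45.2% of the 84 and 36.2% of the 94 had 1 TSS. The stretch spanned by the TSSs of a gene was not compared, so part of this difference too may come from the count. Germline genes did not show the difference, with 6.75 and 6.15 at the 20 members and 6.55 and 5.64 at the 22 genes with a peak. Neuronal members had 7.97 and 6.65, against 10.7 and 8.81 at neuronal genes with a peak, whose median number of TSSs was 4 against 2. No distal peak lay within 50 kb of 62 members in replicate 1 and 68 in replicate 2, of which 14 and 17 had unique promoters. Distal and promoter peaks come from the same libraries and neighbouring sequence, so these means are given without a test.

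The sequence between 250 bp before and 50 bp after the TSS of highest CpG ratio was searched on both strands for short consensus motifs. Motifs of factors known from housekeeping promoters stood at a smaller share of members than of genes with a peak in both libraries. The ETS motif CCGGAAGT stood at 5 of 363 members with unique promoters (1.38%) and at 865 of 9902 genes with a peak in both libraries (8.74%). Taking genes with a peak in the same mix of CpG ratio and GC content as the members gave 7.58%. The YY1 motif AAGATGGCG stood at 0.551% of members and 3.98% of genes with a peak (3.52% in the same mix), and the CRE motif TGACGTCA, bound by CREB and ATF factors, at 1.38% and 3.75% (3.22%). The NRF1 core GCATGCGC stood at 3.31% and 5.78% (4.75%), and 6 of the 12 members that held it were the germline genes counted above. None of the 84 developmental factors without a peak held the ETS motif, but 1 of 94 factors with a peak did, so factor genes rarely held it in either state. The motifs were also rare at the 282 genes with a peak in 1 library, unique or not. ETS stood at 0.709% of these, YY1 at 0.355%, CRE at 1.77% and the NRF1 core at 1.42%. Over all 478 members the shares were 2.09%, 1.05%, 1.46% and 2.51%. A small share of these motifs was thus not particular to members.

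Other motifs differed less or in the other direction. The SP/KLF motif GGGGCGGGG stood at 21.8% of members and 25.9% of genes with a peak, and CCAAT, bound by NF-Y, at 31.7% and 34.1%. The TATA box core TATAAA was more frequent at members, 8.82% against 4.32% (3.95% in the same mix). It stood at 13.1% of the developmental factors without a peak and 11.7% of those with one. The homeodomain core TAATTA stood at 2.75% of members and 1.57% of genes with a peak. Over all CpG-rich promoters the shares were 8.33% for ETS, 25.1% for SP/KLF, 34.0% for CCAAT and 5.04% for the TATA box core.

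**Figure D5:**
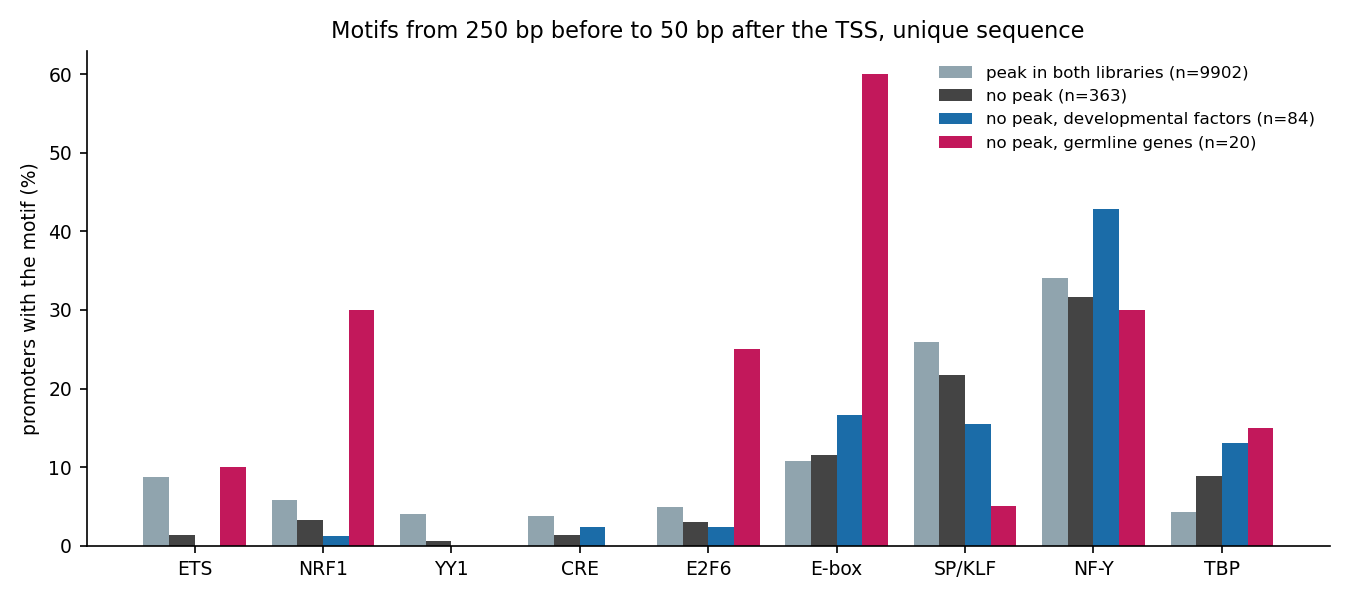
Share of promoters (y axis, percent) that hold each motif between 250 bp before and 50 bp after the TSS, for genes with unique promoters; grey bars are 9902 genes with a peak in both libraries, black bars 363 members, blue bars 84 developmental factors and magenta bars 20 germline genes without a peak (NF-Y stands for CCAAT and TBP for the TATA box core). The ETS share is 8.74% at genes with a peak and 1.38% at members, and the E-box share reaches 60% at germline members.

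Members occurred in runs along the chromosomes. Counting neighbours among CpG-rich protein-coding genes, 88 members lay in 21 runs of 3 or more. In 13 of these runs, with 61 genes, no gene had a unique promoter, and the longest run was 8 predicted genes (Gm13289 to Gm13287) within 26.9 kb of chromosome 4. In 5 runs, with 16 genes, every promoter was unique, and 4 of these lay in Hox clusters or at their ends: Hoxa2 to Hoxa3, Hoxb8 to Hoxb6, Evx2 to Hoxd11 and Hoxa11 to Evx1. The remaining run held Zic2, a zinc finger factor of the forebrain, between 2 predicted genes on chromosome 14. By chromosome, the share of members ranged from 1.06% of CpG-rich genes on chromosome 16 to 8.94% on chromosome 14, where 13 of 37 members had unique promoters.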

How the data were processed

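DNase-seq releases DNA cut by DNase I in accessible chromatin. The authors deposited, for each library, peaks of 150 bp with a signal value and hotspots with a −log10 of the q-value, called per replicate on mm10, per the file headers and the labels. How reads were aligned and regions called is not stated in the sources used here. Read totals are not stated either, so depth is unknown and no counting interval was computed. Both lists were set against GENCODE release 21 TSSs and GRCm38 sequence with Python 3.11.15, pandas 2.3.3, NumPy 2.4.6, numba 0.67.0 and matplotlib 3.10.9. A promoter was unique when at least 90% of its 32-mers occurred once in the genome. Islands were joined windows of 200 bp with at least 50% GC and a CpG ratio of 0.6.

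Members and lists were chosen with earlier results of these data known, and 1 list after the members were seen. Named genes were the members of each list with the highest CpG ratio, the extremes of CpG ratio, island, distal peaks, distance and hotspot width, genes beside the thresholds, all heart members, the longest runs and the strongest peaks found in 1 library. No test was made, since the rule used the peaks and the series holds 1 group. Some genes named by this rule are not reported here. The search and counting steps were tested on simulated data.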

Additional observations from a re-analysis of the deposited data

How the results depend on the processing

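Each setting was changed alone and the values described again. The number of members rose from 478 to 998 when the stronger 50% of peaks of each library were used, and fell to 209 at a CpG ratio of 0.75. The share of CpG-rich genes without a peak was 4.26%, and became 5.71% with a window of 250 bp, 3.42% with 1000 bp, 8.90% with the stronger peaks, 5.46% and 2.87% at CpG ratios of 0.5 and 0.75, 5.21% with the 5′-most TSS alone, 3.45% with unique promoters and from 5.17% to 5.87% with 1 library. For developmental factors the share of 40.2% became 56.5% with the stronger peaks, 33.8% at a ratio of 0.75 and from 44.4% to 51.4% with 1 library. For germline genes 44.7% became 53.2% with the stronger peaks, 50% and 23.5% at ratios of 0.5 and 0.75, 41% with a GC minimum added, 50% with the 5′-most TSS and from 46.8% to 51.1% with 1 library. The E-box share of all 21 germline members, 57.1%, became 48% with the stronger peaks, 43.3% and 75% at ratios of 0.5 and 0.75, 68.8% with the GC minimum, 71.4% within 500 bp of the TSS and from 50% to 54.5% with 1 library. The ETS share of members, 2.09%, became 1.60% with the stronger peaks, 1.44% at 0.75, 1.03% with the GC minimum, 1.38% with unique promoters, 5.23% within 500 bp and from 1.52% to 2.07% with 1 library. At genes with a peak in both libraries it was 8.82%, and became 12.5% within 500 bp and from 7.85% to 9.22% under the other settings. The gap in ETS share was thus relatively smaller within 500 bp. Distal peaks per member, 5.57, became 2.75 with the stronger peaks, 6.31 at 0.75, 6.46 with unique promoters, 2.39 within 20 kb and from 5.64 to 6.22 with 1 library. At genes with a peak in both libraries they were 9.20 per gene. This became 4.90 with the stronger peaks, 9.49 at 0.75, 9.28 with unique promoters, 4.37 within 20 kb and from 8.49 to 9.87 with 1 library. The cause of these shifts was not tested beyond each setting's own construction. Hotspots in place of peaks left 453 of the 478 members without a call. Over 18 lists and 164 counts under other settings, 118 stayed within 1.5 times the count reported and 46 did not. No paired analysis was possible because the series holds 1 group. Unknown depth and 2 libraries limit every count of missing peaks, since a weak site can fall under the caller's threshold.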
